A study of Mus musculus with 12 samples.

Results

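Aminoacyl-tRNA synthetases are the enzymes that load amino acids onto their transfer RNAs, the step that makes the genetic code readable by the ribosome. The 34 genes described here were taken by name from the mouse gene list, and they were chosen with earlier results of these data known. Of them, 19 encode cytosolic enzymes and 15 encode mitochondrial ones (symbol ending in 2). All 34, of 52654 genes in the count files, were found, and all 34 were among the 13340 genes with enough counts to be tested. In the text each gene carries the symbol of the GENCODE M21 annotation (Aars, Sars and so on).

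The cytosolic enzymes supply translation of nuclear-encoded proteins. The mitochondrial enzymes are also encoded in the nucleus and supply only the ribosomes inside the organelle, which make a small set of respiratory-chain proteins. Gars and Kars each give rise to both a cytosolic and a mitochondrial form and are counted with the cytosolic genes, Eprs carries glutamyl- and prolyl-tRNA synthetase in a single chain, and Farsa and Farsb encode the alpha and beta subunits of the cytosolic phenylalanyl enzyme. Many cytosolic synthetase genes are known targets of ATF4, the transcription factor of the integrated stress response, which cells switch on when amino acids are short, when unfolded proteins build up or under oxidative stress. In osteoblasts ATF4 is also known for its part in amino acid import and collagen synthesis.

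The libraries came from MC3T3-E1 Subclone 14, a mouse calvaria preosteoblast line, so that every group is a single clone. The 4 groups, with 3 libraries each, were isolated cells on control titanium, isolated cells on titanium with nanotopography, and cells co-cultured with osteoclasts on each of these surfaces. All were kept in osteogenic medium (7 mM β-glycerophosphate, 5 μg/mL ascorbic acid) and RNA was taken on day 7. In the co-cultures, RAW 264.7 macrophage-line cells treated with 50 ng/mL RANKL sat in inserts with 0.4 μm pores and shared the medium for the last 2 days, after 5 days apart. RANKL and the insert are recorded only for the co-cultures, so the osteoclasts, RANKL and the insert cannot be told apart. The design text speaks of biological triplicates, but nothing ties libraries to separate thaws or passages.

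Total counts ran from 5866842 to 9207831 per library. All 13 osteoblast markers were tested and none was at 0 counts in any group; they summed to 83010 to 98320, 89020 to 92390, 73830 to 87860 and 47180 to 55010 CPM (counts scaled to a library total of 1000000) in isolated control, isolated nanotopography, co-culture control and co-culture nanotopography. Of 19 osteoclast and macrophage markers, 8, 7, 4 and 1 were at 0 counts in the same order, and Ptprc, the pan-leukocyte marker CD45, had 0, 0, 2 and 44 counts summed over the 3 libraries of those groups. Without Ctsk, which lay at 158 to 193 CPM in all 12 libraries, the markers summed to 68.5 to 80.4, 80.3 to 88.6, 128 to 140 and 120 to 155 CPM. This sum held Itgb3, also present in isolated cells, with 1038, 1025, 2418 and 2053 counts over the 3 libraries of each group. Mmp9 had 419, 415, 442 and 337 counts, Cd68 23, 18, 17 and 78, Csf1r 51, 38, 45 and 144, and Laptm5 3, 3, 15 and 74. The part of either marker list in the synthetase values was not tested. The libraries also differed in how counts followed GC content: genes over 60% GC lay at a median of -0.67 to -1.09 (log2) in the 3 co-culture nanotopography libraries relative to the mean of all libraries, and at -0.09 to 0.62 in the other 9. For this reason log2 fold changes that involve nanotopography are also given GC-adjusted, that is, after the trend of each library with GC content and transcript length was removed. Such an adjustment can remove true differences as well.

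Cytosolic synthetase mRNAs were far more abundant than mitochondrial ones in these osteoblasts. In isolated cells on control titanium, the level per kilobase of exon was highest for Gars, glycyl-tRNA synthetase, at 157.8 ± 15.5 CPM per kb (SD, n = 3). Nars (asparagine) followed at 50.0 ± 2.58, Sars (serine) at 46.8 ± 6.30 and Eprs at 43.9 ± 2.80 CPM per kb. Sars did not differ from Nars or Eprs beyond its spread, whereas Gars stood clear of all. At the other end Mars2 (mitochondrial methionine) had 0.853 ± 0.0655, Sars2 (mitochondrial serine) 1.01 ± 0.160 and Nars2 (mitochondrial asparagine) 1.02 ± 0.237 CPM per kb, and these 3 did not differ beyond their spread. Exon length here is the union over all annotated transcripts, so genes with long rare exons are set too low.

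Of 14 amino acids with both a cytosolic and a mitochondrial gene among the members, the cytosolic gene had the higher mean level per kb for all 14 in 3 of the groups, and for 13 in isolated cells on nanotopography. The exception was leucine, where Lars had 24.1 ± 1.90 and Lars2 27.0 ± 33.6 CPM per kb (SD, n = 3). That Lars2 mean rested on 1 library, with 730 CPM in replicate 1 against 88.5 and 80.5 CPM in the others. In isolated cells on control titanium the ratio of the cytosolic to the mitochondrial level per kb ran from 1.87 for leucine and 2.27 for tryptophan to 48.8 for asparagine. Farsa and Farsb, whose products join in a single enzyme, had like levels of 9.01 ± 0.624 and 9.80 ± 1.91 CPM per kb.

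In osteoblasts on control titanium, osteoclast co-culture went with higher cytosolic synthetase mRNAs, with Sars, Aars and Nars called under each alternative run. This comparison asks how osteoblasts on the control surface respond to osteoclasts that share their medium. Of the 19 cytosolic genes 8 rose and 0 fell, while 11 did not pass the test (edgeR quasi-likelihood, Benjamini-Hochberg adjusted p below 0.05 over all tested genes). Over all 13340 tested genes 19.7% were called, 10.9% higher and 8.72% lower. The median log2 fold change of the cytosolic genes was 0.27, beside -0.02 over all tested genes. Of the 15 mitochondrial genes 0 were called in either direction and their median was 0. Of them, 4 had an unadjusted p under 0.05, and DESeq2 called 0. Most mitochondrial genes had lower counts and larger SEs than the cytosolic ones, so changes of like size were less easily called. Fars2 (0.51 ± 0.23), Rars2 (-0.42 ± 0.17) and Hars2 (-0.38 ± 0.14) were not called, whereas Lars (0.38 ± 0.10) and Iars (0.34 ± 0.09) were. Numbers of calls in the classes are thus not on an equal footing in any contrast. Every co-culture library was above every isolated one for 11 cytosolic genes and below for 1 (Rars), and the same counts were 1 and 3 for the mitochondrial genes, beside 36.1% of all genes whose groups did not overlap in either direction.

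Sars, seryl-tRNA synthetase, had 211, 235 and 275 CPM in the isolated libraries on control titanium and 407, 491 and 484 CPM in the co-culture libraries. All 3 co-culture values lay above all 3 isolated ones. Its log2 fold change was 0.94 ± 0.14 (SE), a 1.92-fold rise, with an edgeR adjusted p of 0.000193. Aars, alanyl-tRNA synthetase, had 227, 231 and 255 CPM in isolated and 379, 398 and 412 CPM in co-cultured cells, again with no overlap, and rose by 0.74 ± 0.11 (edgeR adjusted p = 0.000198). Nars had 210, 213 and 231 CPM in isolated and 315, 328 and 265 CPM in co-cultured cells, and rose by 0.48 ± 0.10 (edgeR adjusted p = 0.00316). Qars, the glutamine enzyme, had 66.7, 64.8 and 88.5 CPM against 94.1, 110 and 105 CPM, and rose by 0.49 ± 0.16 (edgeR adjusted p = 0.0369), with the third isolated library close to the lowest co-culture one. The Qars call was lost with upper-quartile scaling (edgeR adjusted p = 0.0583) and without replicate 1 or 2 of isolated control or replicate 2 or 3 of co-culture control (0.0775 to 0.163).

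The other 4 genes that rose were Yars (tyrosine, 0.46), Cars (cysteine, 0.43), Lars (leucine, 0.38) and Iars (isoleucine, 0.34). Vars (valine, 0.28), Dars (aspartate, 0.27) and Eprs (0.25) had log2 fold changes with edgeR adjusted p of 0.14, 0.103 and 0.0818, and these 3 passed the test when GC-adjusted, which gave 11 of 19 genes higher, 0 lower and kept all 8. GC-adjusted, 26.9% of all genes were called, 15% higher and 11.9% lower, and 18.5% were called in the same direction in both fits (10.5% higher). Hars2 (mitochondrial histidine) was the 1 mitochondrial gene called when GC-adjusted, lower at -0.41. Gars and Farsa were not called, at log2 fold changes of 0.02 ± 0.12 and 0.01 ± 0.12. The mitochondrial partners of the genes that moved most had log2 fold changes of -0.11 (Sars2), -0.14 (Aars2) and 0.24 (Nars2), none past the test. Without replicate 1 of isolated control 4 cytosolic genes were called and without its replicate 2 there were 5.

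**Figure D1:**
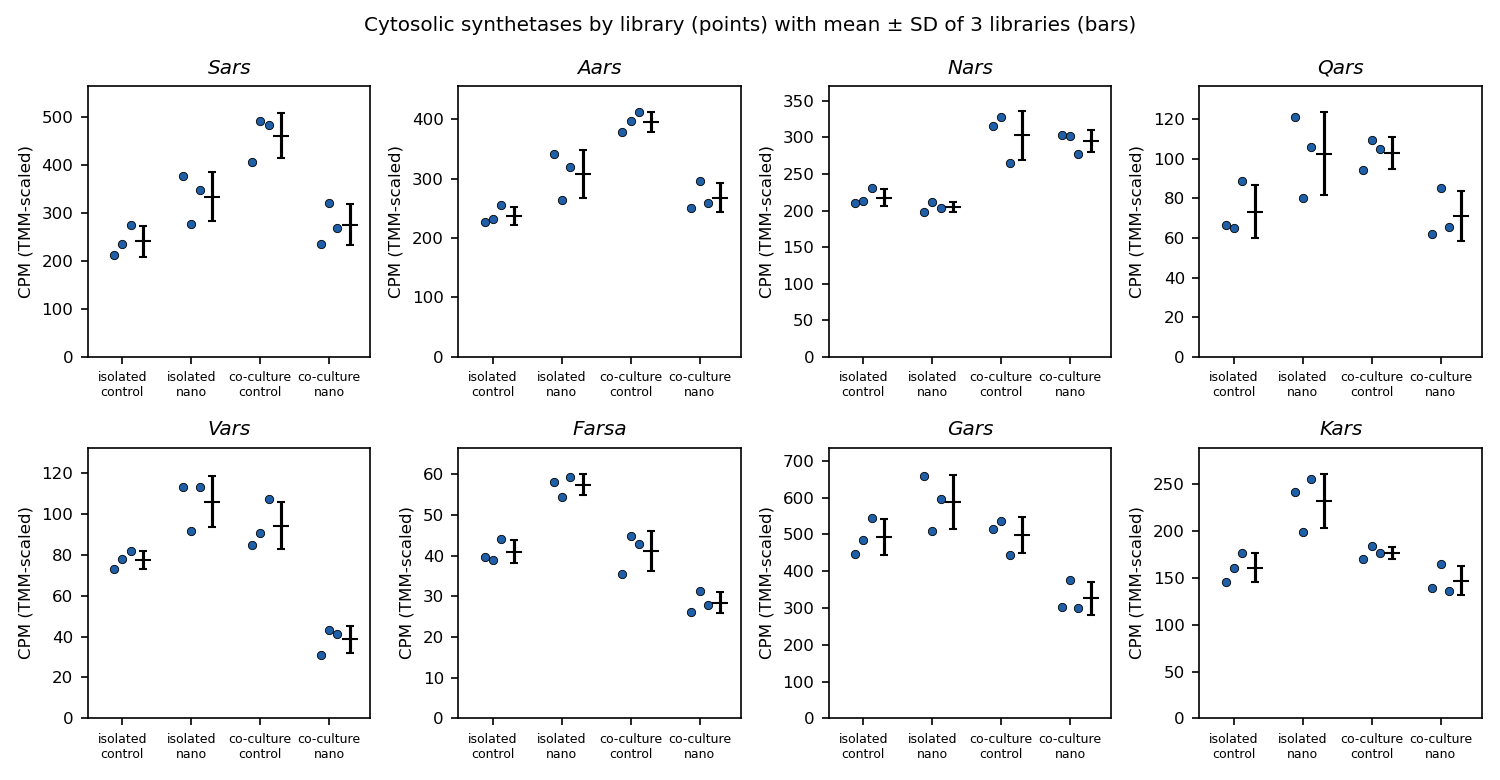
Levels of 8 cytosolic synthetase genes in CPM (TMM-scaled) for each of the 12 libraries (points) with the mean ± SD of the 3 libraries of each group (bars). Sars, Aars, Nars and Qars are higher in co-culture than in isolated cells on control titanium, and Vars, Farsa and Gars are lowest in co-culture on nanotopography.

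The genes that rose were then set beside what is known of their control. Of 11 synthetase genes often described as ATF4 targets 7 rose on control titanium (Aars, Cars, Iars, Lars, Nars, Sars and Yars) and 0 fell; the other 4, Eprs, Gars, Tars and Wars, were not called. Of the 8 other cytosolic genes 1 rose, Qars. GC-adjusted, 8 of the 11 were called higher and 3 of the 8 (Dars, Qars and Vars), with medians of 0.34 and 0.20. Over all genes 10.9% were called higher, and 15% when GC-adjusted. The difference between these lists was not tested. Of the 7 synthetases that belong to the multi-synthetase complex, in which several cytosolic enzymes are held together, 3 rose (Iars, Lars and Qars), while 5 of the 12 outside it rose. The complex scaffolds Aimp1, Aimp2 and Eef1e1 had log2 fold changes of -0.03, 0.40 and 0.14, and 0 of the 3 were called, with 0 called also when GC-adjusted. By catalytic fold, 5 of 18 class I and 3 of 16 class II genes rose.

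The windows around the start sites were searched for the C/EBP-ATF response element, to which ATF4 binds as a dimer with C/EBP proteins, in the form TGATGNAA on either strand (TTNCATCA when read on the other strand). The windows reached 250 bases before to 50 bases after each RefSeq start (GRCm38.p6), and 26 of the 34 members had one. The letters were present for 5 of 12 cytosolic genes with a window and for 0 of 14 mitochondrial genes, beside 3.97% of all 32851 windows. Of the 8 cytosolic genes that rose on control titanium 5 had a window, and 3 of these held the letters (Aars, Iars and Yars). Of the other cytosolic genes 7 had a window, and 2 held them (Gars and Tars). Stretches with a match are shown for these 5 genes because they tie members that rose and members that did not to the same letters; each stretch of 30 bases is written in the direction of the gene, with the match in capitals, and all are RefSeq GRCm38.p6 sequence.
Aars at chr8:111033840-111033869, match from base 10 after the start: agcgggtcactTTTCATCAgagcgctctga
Gars at chr6:55037960-55037989, match from 30 bases before the start: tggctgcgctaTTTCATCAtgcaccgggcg
Iars at chr13:49682126-49682155, match from base 8 after the start: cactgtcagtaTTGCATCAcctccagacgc
Tars at chr15:11399655-11399684, gene on the minus strand, match from 15 bases before the start: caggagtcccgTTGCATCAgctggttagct
Yars at chr4:129189895-129189924, match from base 4 after the start: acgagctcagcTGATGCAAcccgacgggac
The letters TTGCATCA were thus the same in Iars and Tars, of which Iars rose on control titanium and Tars had a log2 fold change of -0.15 ± 0.12. Gars, with a match close to its start, had 447, 486 and 544 CPM in isolated and 516, 538 and 443 CPM in co-cultured cells on control titanium, which overlap. A match is a description of the sequence, not a measured binding site.

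Sars, the member with the highest log2 fold change on control titanium, had no match in its window. Its 250 bases before the RefSeq start are shown for comparison with the matched sites, on chr3:108445260-108445509 with the gene on the minus strand.
Sars upstream: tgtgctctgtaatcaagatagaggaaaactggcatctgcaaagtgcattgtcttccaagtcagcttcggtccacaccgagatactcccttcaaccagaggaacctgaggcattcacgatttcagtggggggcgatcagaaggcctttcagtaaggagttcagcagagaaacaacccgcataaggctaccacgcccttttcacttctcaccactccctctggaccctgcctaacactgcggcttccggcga

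The regulators of the integrated stress response rose on the same surface, where 10.9% of all tested genes were called higher and 8.72% lower. Of 14 tested regulators 9 rose and 1 fell: Atf3, a stress-induced transcription factor, rose by 2.57, Ddit3, which encodes CHOP, by 2.10, Ppp1r15a, the GADD34 phosphatase subunit, by 1.85 and Trib3 by 1.73, and the gene for the kinase PERK, Eif2ak3, fell by 0.37 on the log2 scale. Atf4 mRNA itself had 219, 215 and 202 CPM in isolated and 352, 354 and 273 CPM in co-cultured cells, a rise of 0.62 ± 0.11 (edgeR adjusted p = 0.00106). Of 16 tested ATF4 target enzymes and effectors 2 rose, Asns (asparagine synthetase, 0.71) and Shmt2 (mitochondrial serine hydroxymethyltransferase, 0.42), 1 fell, Pycr1 (proline synthesis, -0.64), and 13 were not called. The share called among these 16 was near the 19.7% over all genes. Of 9 amino acid transporters 4 rose, led by Slc3a2, the shared heavy chain of several transporters, at 2.83-fold, with log2 fold changes of 0.52 for Slc7a5, 0.50 for Slc7a1 and 0.54 for Slc6a9, and Slc43a2 fell (-0.44).

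**Figure D2:**
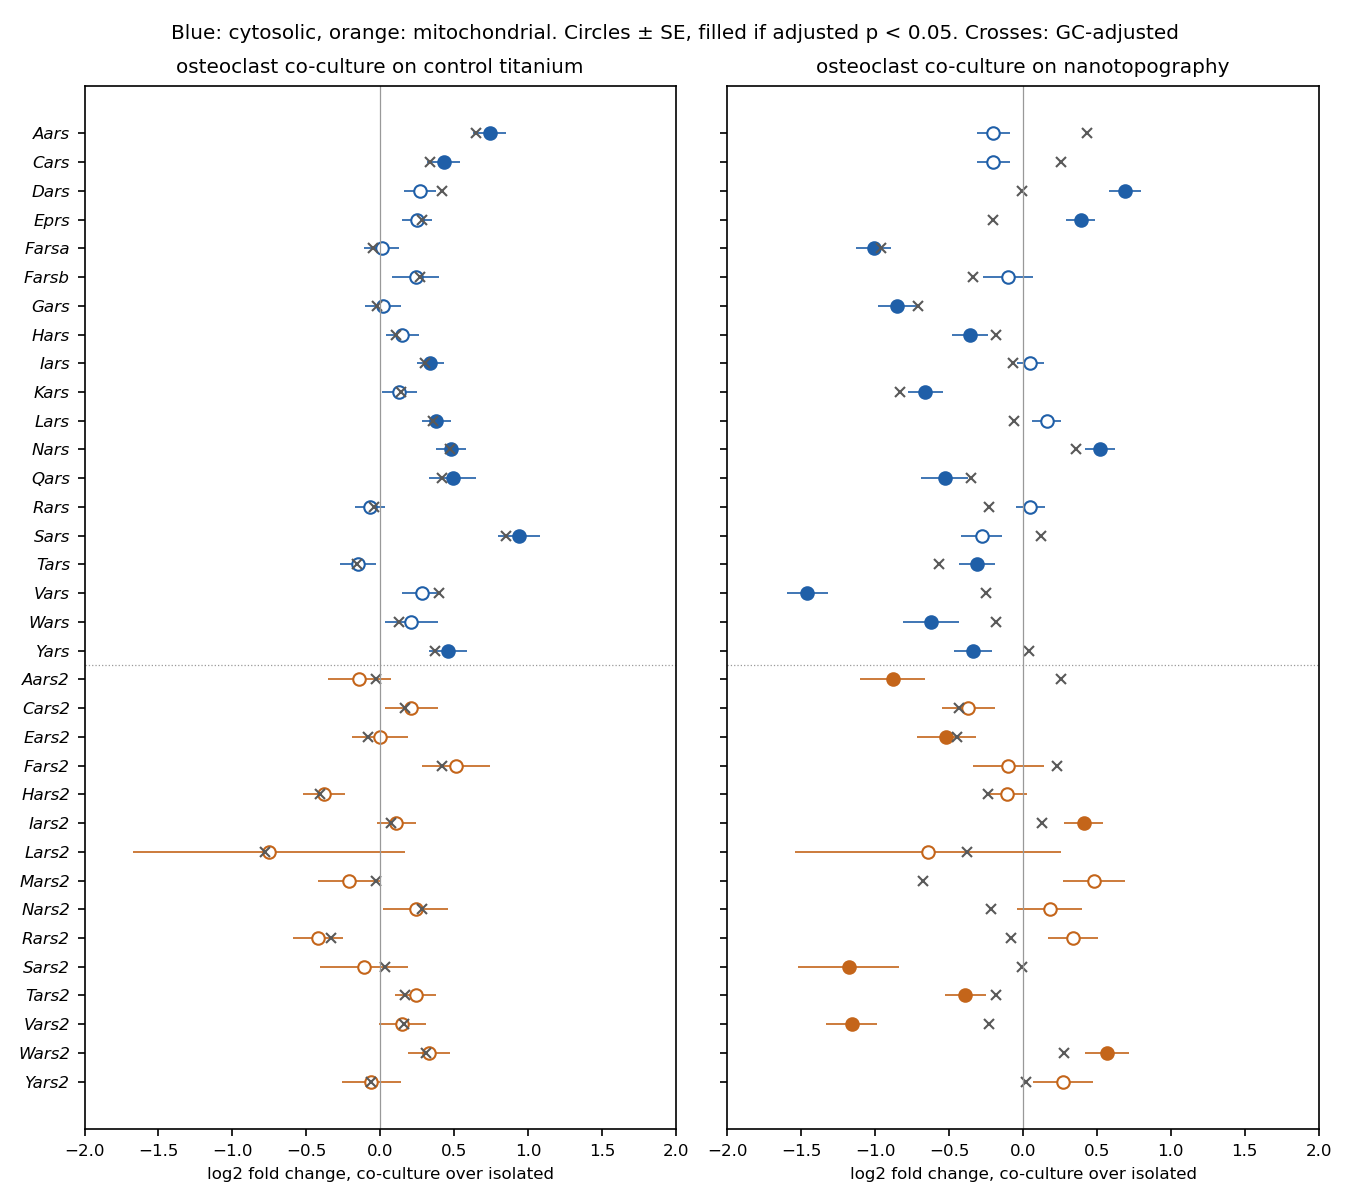
Log2 fold change (± SE) of co-cultured over isolated cells for all 34 synthetases on control titanium (left) and nanotopography (right). Filled circles passed the test, crosses are GC-adjusted values, and the dotted line parts cytosolic from mitochondrial genes: the called cytosolic genes are all higher on control titanium and mostly lower on nanotopography.

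Osteoclast co-culture on nanotopography gave a different pattern: Vars, Farsa, Gars and Kars fell and Nars rose. Of the 19 cytosolic genes 3 rose and 9 fell, with a median log2 fold change of -0.28, beside 0 over all tested genes. Of the 15 mitochondrial genes 2 rose and 5 fell (median -0.11). The background was high, with 59.2% of all tested genes called, 28.7% higher and 30.4% lower, so the 12 of 19 and 7 of 15 were near it. In the same contrast the osteoblast markers gave 2 higher and 7 lower of 13 (GC-adjusted 3 and 4), the mitochondrial ribosomal RNA mt-Rnr2 went from a mean of 38690 to 104100 CPM (log2 fold change 1.43, GC-adjusted 0.29) and the predicted gene Gm26917 from 51220 to 2905 CPM (-4.14, GC-adjusted -1.71). Their part in the synthetase values was not tested. GC-adjusted, 39.4% of all genes were called, 18% higher and 21.4% lower, the cytosolic genes gave 3 higher and 8 lower, and the mitochondrial genes 0 higher and 1 lower (Mars2). In the same direction in both fits, 7 cytosolic genes were called (Farsa, Gars, Kars, Qars, Tars and Vars lower, Nars higher) and 0 mitochondrial ones, beside 25.5% of all genes (14% lower, 11.5% higher). The libraries did not overlap for 3 cytosolic genes that were higher and 7 that were lower, and for 2 and 5 mitochondrial ones, beside 64.4% of all genes.

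Farsa, the alpha subunit of phenylalanyl-tRNA synthetase, had 58.2, 54.5 and 59.4 CPM in isolated and 26.2, 31.2 and 27.8 CPM in co-cultured cells on nanotopography. Every co-culture value lay far below every isolated one. It fell by 1.01 ± 0.12 (edgeR adjusted p = 3.21e-06), and by 0.96 ± 0.10 when GC-adjusted. Farsb, the beta subunit, had 31.1, 25.5 and 32.3 CPM against 26.9, 31.6 and 24.1 CPM, which overlap, with a log2 fold change of -0.10 ± 0.17 (GC-adjusted -0.34 ± 0.17), not called in either fit. The difference between the subunits was not tested. Fars2, the mitochondrial phenylalanyl enzyme, had a log2 fold change of -0.10 ± 0.24 (GC-adjusted 0.23), not called in either fit.

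Vars, valyl-tRNA synthetase, had 113, 91.6 and 113 CPM in isolated and 31.1, 43.2 and 41.4 CPM in co-cultured cells. The groups were well apart and the log2 fold change was -1.46 ± 0.14 (edgeR adjusted p = 2.7e-07), the lowest among the members. With a GC content of 60.9%, the highest among the members, its GC-adjusted value was much smaller, -0.25 ± 0.08 (edgeR adjusted p = 0.0217). The mitochondrial partner Vars2 (58.6% GC) had 16.8, 16.6 and 19.01 CPM against 6.51, 9.27 and 7.59 CPM, a fall of 1.16 ± 0.17 that was not called when GC-adjusted (-0.23). Sars2 (60.1% GC, 9 to 31 counts per library) fell by 1.18 ± 0.34 and Aars2 by 0.88 ± 0.22, with GC-adjusted values of -0.01 and 0.26.

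Gars had 658, 510 and 597 CPM in isolated and 302, 377 and 299 CPM in co-cultured cells on nanotopography, with no overlap. It fell by 0.85 ± 0.13 (edgeR adjusted p = 2.66e-05; GC-adjusted -0.71). Kars, the lysine enzyme, had 242, 199 and 256 CPM against 140, 165 and 137 CPM and fell by 0.66 ± 0.12 (edgeR adjusted p = 0.000133; GC-adjusted -0.83). Neither gene was called with co-culture on control titanium, where the log2 fold changes were 0.02 and 0.13.

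Nars rose here too, from 199, 212 and 204 CPM in isolated to 304, 303 and 277 CPM in co-cultured cells on nanotopography, by 0.52 ± 0.10 (edgeR adjusted p = 0.000306; GC-adjusted 0.36). It was the only member called higher in co-culture on each surface with and without the GC adjustment. Dars, with the lowest GC content of the cytosolic genes (41.2%), rose from 93.5, 115 and 94.0 CPM to 168, 159 and 161 CPM, by 0.69 ± 0.11, and its GC-adjusted value was -0.01. Eprs (44.0% GC) rose by 0.39 and was called lower when GC-adjusted (-0.20). Wars2 (mitochondrial tryptophan) rose by 0.57 and Iars2 (mitochondrial isoleucine) by 0.41, neither called when GC-adjusted (0.28 and 0.13). For Sars the isolated values of 376, 278 and 347 CPM and the co-culture values of 235, 321 and 269 CPM overlapped, with a log2 fold change of -0.28 ± 0.14 (edgeR adjusted p = 0.0973) and a GC-adjusted one of 0.12. Aars, at -0.20 ± 0.11, was called higher when GC-adjusted (0.43).

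Farsa, Gars, Nars and Vars were called on nanotopography under each alternative run, and no mitochondrial gene was. Without replicate 3 of co-culture nanotopography 7 cytosolic genes were called. Without replicate 1 of isolated nanotopography 4 mitochondrial genes were called.

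**Figure D3:**
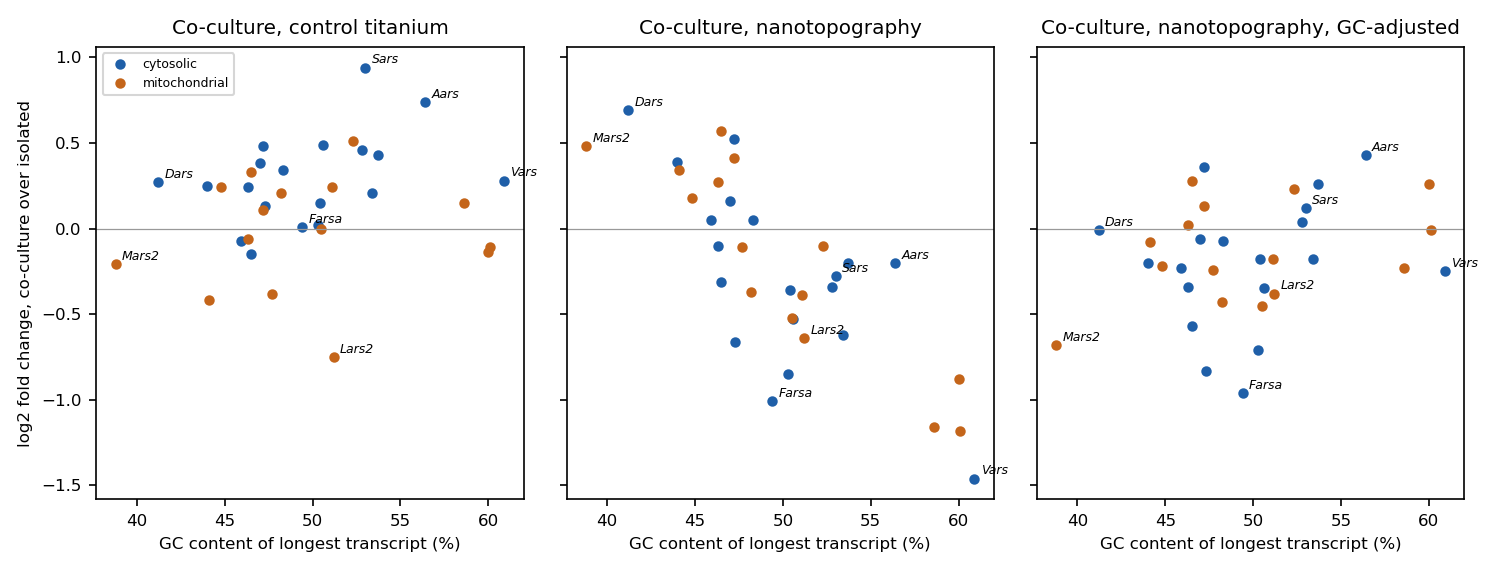
Log2 fold change of co-cultured over isolated cells against the GC content (%) of the longest transcript for the 34 synthetases, on control titanium (left), on nanotopography (middle) and on nanotopography after GC adjustment (right). On nanotopography the values fall with GC content from Dars to Vars, and after adjustment Farsa remains low.

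Across the 34 members the log2 fold change of co-culture on nanotopography followed GC content, with a Spearman rho of -0.76, beside -0.73 over all 13340 genes. On control titanium rho was 0.24 for the members and 0.16 for all genes. For the surface in co-cultured cells the members had -0.83 and all genes -0.75. These are relations across genes that share the same libraries and depth, and genes are not independent replicates.

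Nanotopography in isolated osteoblasts was set against control titanium next, to ask what the surface does without osteoclasts. Of the 19 cytosolic genes 5 were called higher and 1 lower, and of the 15 mitochondrial genes 0 were called (0 had an unadjusted p under 0.05, and DESeq2 called 0). Over all genes 9.71% were called, 4.32% higher and 5.39% lower. The libraries did not overlap for 7 cytosolic genes that were higher and 1 that was lower, and for 1 and 1 mitochondrial ones, beside 29.9% of all genes. The cytosolic median was 0.21 and the mitochondrial one 0.08, beside 0.01. Kars had 145, 161 and 177 CPM on control titanium and 242, 199 and 256 CPM on nanotopography, with no overlap, and was higher by 0.53 ± 0.12 (edgeR adjusted p = 0.0194; GC-adjusted 0.59). Farsa, with 39.6, 39.0 and 44.2 CPM against 58.2, 54.5 and 59.4 CPM, was higher by 0.49 ± 0.12 (edgeR adjusted p = 0.0239; GC-adjusted 0.45). Sars was higher by 0.47, Vars by 0.45 and Aars by 0.38, and Dars was lower by a log2 fold change of -0.46, and these 4 were not called when GC-adjusted (0.31, 0.19, 0.19 and -0.08). GC-adjusted, 3 cytosolic genes were higher (Eprs, Farsa and Kars) and 0 lower, beside 5.45% of all genes called (3.71% higher, 1.74% lower), and Farsa and Kars were higher in both fits, beside 2.11% of all genes (3.37% in the same direction). Of the 6 calls 0 held when replicate 1 or 2 of isolated control, or replicate 1 or 3 of isolated nanotopography was left out, when 3, 3, 65 and 3 of all 13340 genes were called.

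Nanotopography in co-cultured osteoblasts went with lower cytosolic synthetase mRNA. Of the 19 cytosolic genes 0 were higher and 10 lower, with a median of -0.31 beside -0.02 over all genes, of which 42% were called, 18.6% higher and 23.3% lower. GC-adjusted, 11 were lower and 0 higher beside 18.3% of all genes called (7.17% higher, 11.2% lower), and 7 were lower in both fits (Farsa, Gars, Iars, Qars, Sars, Vars and Yars) beside 7.37% of all genes. The libraries did not overlap for 12 cytosolic genes that were lower and 1 that was higher (Rars), and for 4 and 3 mitochondrial ones, beside 53.4% of all genes. Sars, with 407, 491 and 484 CPM on control titanium and 235, 321 and 269 CPM on nanotopography, was lower by a log2 fold change of -0.74 ± 0.14 (edgeR adjusted p = 0.00086; GC-adjusted -0.42). Vars had 85.0, 90.6 and 107 CPM against 31.1, 43.2 and 41.4 CPM, a log2 fold change of -1.29 ± 0.14 (edgeR adjusted p = 1.51e-05; GC-adjusted -0.46). In these genes no library of either group reached the other.

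The same contrast gave 2 higher and 4 lower calls among the 15 mitochondrial genes (median 0.05). This was near the 42% of all genes called, 18.6% higher and 23.3% lower. Rars2, mitochondrial arginyl-tRNA synthetase, had 15.9, 18.7 and 16.5 CPM on control titanium and 31.7, 20.9 and 26.6 CPM on nanotopography, higher by 0.63 ± 0.17 (edgeR adjusted p = 0.00716; GC-adjusted 0.33, not called). Its cytosolic partner Rars had a log2 fold change of 0.21 (GC-adjusted 0.01). Mars2, with the lowest GC content of the members (38.8%), was higher by 0.54 and had a GC-adjusted value of -0.25, not called. Vars2 was lower at -1.09 and Sars2 at -0.88, neither called when GC-adjusted (-0.39 and -0.10), and Aars2 at -0.66, whose adjusted value was 0.13. Tars2 (mitochondrial threonine), with 26.2, 27.8 and 25.1 CPM against 16.3, 16.8 and 21.3 CPM, was lower at -0.55 ± 0.14 and the only mitochondrial gene called in both fits (GC-adjusted -0.36). Of all genes, 11.2% were called in the same direction in both fits, 7.37% lower. Without replicate 1 of co-culture nanotopography 2 of the 15 were called.

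The effect of co-culture differed between the surfaces for many of the cytosolic genes. The interaction, which is the co-culture log2 fold change on nanotopography minus that on control titanium, was called lower for 11 of the 19 cytosolic genes and higher for 1, with a median of -0.63 beside -0.05 over all genes, of which 47.8% were called, 22.4% higher and 25.4% lower. For Sars it was -1.21 ± 0.20 (edgeR adjusted p = 0.000275; GC-adjusted -0.73), for Farsa -1.02 ± 0.17 (edgeR adjusted p = 0.000304; GC-adjusted -0.91) and for Vars -1.74 ± 0.19 (edgeR adjusted p = 2.62e-05; GC-adjusted -0.65). These 3 were called under each alternative run. For Aars it was -0.94 ± 0.16 (edgeR adjusted p = 0.000315), and its GC-adjusted value of -0.22 was not called.

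GC-adjusted, 11 cytosolic genes were lower in the interaction and 0 higher, beside 20.8% of all genes called, 7.68% higher and 13.2% lower. The genes lower in both fits were Farsa, Gars, Kars, Qars, Sars and Vars, 6 of 19, beside 8.21% of all genes (13% higher or lower in both). Nars had an interaction of 0.05 ± 0.14 (GC-adjusted -0.11) and Rars one of 0.13 ± 0.14 (GC-adjusted -0.19), neither called in either fit. Among the 15 mitochondrial genes 1 was higher (Rars2) and 2 lower (Tars2 and Vars2) with a median of -0.06, and 0 were called when GC-adjusted. Leaving out replicate 3 of isolated control gave 5 mitochondrial calls, and leaving out replicate 2 of isolated nanotopography or replicate 3 of co-culture nanotopography gave 6.

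Summed over genes, the cytosolic and mitochondrial classes differed in how far the groups moved. The 19 cytosolic genes summed to 3199 ± 114 CPM in isolated control, 3610 ± 184 in isolated nanotopography, 4040 ± 88.5 in co-culture control and 3394 ± 189 in co-culture nanotopography (SD, n = 3). The co-culture control libraries, at 3944 to 4118 CPM, lay above the other 9, which ran from 3098 to 3765 CPM. The 14 mitochondrial genes other than Lars2 summed to 205 ± 1.97, 202 ± 5.21, 214 ± 6.70 and 206 ± 10.3 CPM in the same order, and all 12 libraries lay between 196 and 222 CPM. This level sum held genes that were called in opposite directions on nanotopography.

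Lars2, mitochondrial leucyl-tRNA synthetase, varied more within groups than between them. Its levels were 75.6, 101 and 237 CPM in isolated control, 730, 88.5 and 80.5 CPM in isolated nanotopography, 190, 34.2 and 16.5 CPM in co-culture control and 378, 177 and 18.7 CPM in co-culture nanotopography. With SEs of 0.90 to 0.92 on the log2 scale in the 4 pairwise comparisons it was not called in any, and the SD exceeded the mean in isolated nanotopography and co-culture control. The predicted gene Gm42418, where ribosomal RNA reads often align, had 4054, 5381 and 10750 CPM, then 24590, 4951 and 8849, then 4464, 1361 and 1311, and then 6243, 3883 and 214 CPM in the same libraries. Both were highest in replicate 1 of isolated nanotopography. Whether ribosomal reads enter the Lars2 count was not tested, and with Lars2 the mitochondrial sum was 342 ± 86.7, 502 ± 374, 295 ± 94.5 and 397 ± 175 CPM.

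**Figure D4:**
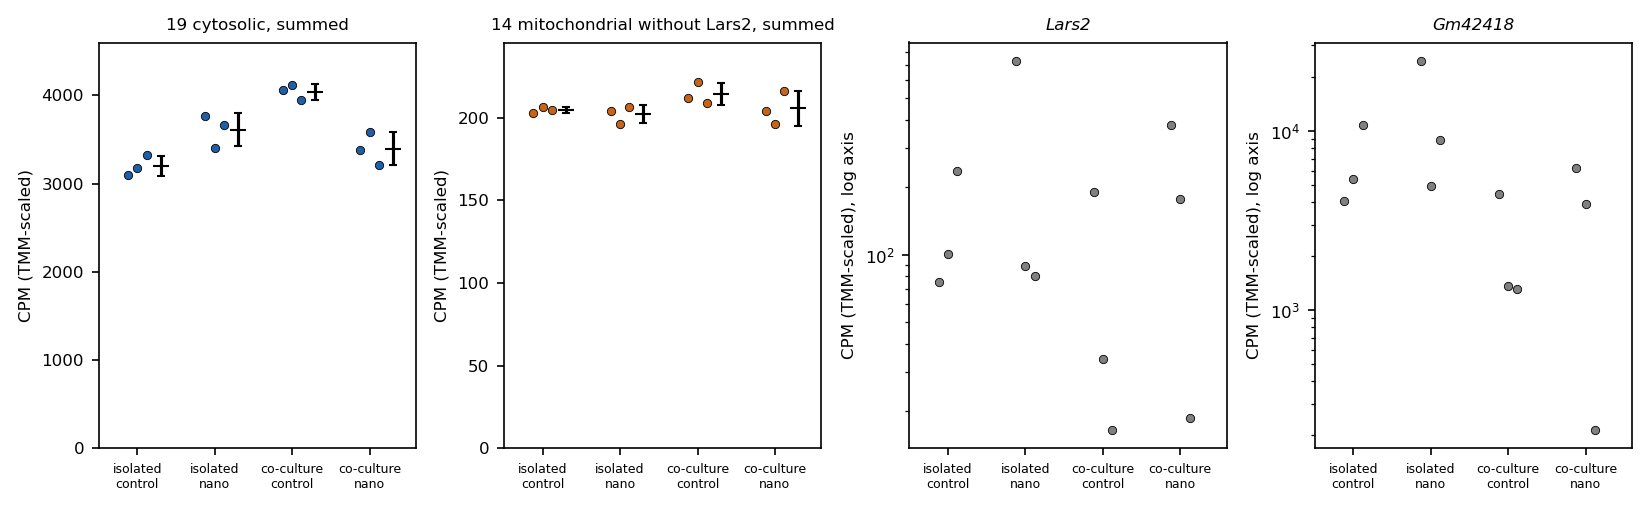
Summed CPM (TMM-scaled) of the 19 cytosolic and of the 14 mitochondrial synthetases without Lars2 for each library (points) with the mean ± SD of each group (bars), and, on log axes, CPM of Lars2 and of the predicted gene Gm42418. The cytosolic sum is highest in co-culture on control titanium, the mitochondrial sum stays between 196 and 222 CPM, and Lars2 spreads widely within each group.

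On nanotopography 9 of the 14 stress regulators rose with co-culture and 2 fell (GC-adjusted 10 and 1), beside 59.2% of all genes called, 28.7% higher and 30.4% lower (GC-adjusted 18% and 21.4%): Atf3 rose by 2.79, Ddit3 by 2.64, Trib3 by 1.89 and Atf4 by 0.92 (GC-adjusted 3.12, 2.50, 2.85 and 1.61). Atf4 mRNA had 142, 154 and 161 CPM in isolated and 281, 264 and 321 CPM in co-cultured cells. The interaction of Atf4, 0.30 ± 0.16, was not called, and its GC-adjusted value of 1.03 was called higher. Of 11 synthetases often described as ATF4 targets 2 rose on nanotopography and 4 fell (GC-adjusted 3 and 3), and of the 8 other cytosolic genes 1 rose and 5 fell (GC-adjusted 0 and 5). The 6 of 11 called is near the share over all genes, and no test compared these groups.

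Of the 16 tested ATF4 target enzymes and effectors 1 rose and 9 fell on nanotopography, and GC-adjusted 4 were higher and 8 lower. The 10 of 16 called is again near the 59.2% of all genes. GC-adjusted, 39.4% of all genes were called, 18% higher and 21.4% lower. Pycr1 fell by 1.47 (GC-adjusted -0.99), Shmt2 by 1.18 (GC-adjusted -0.32), Aldh18a1, which makes the proline precursor, by 1.02 (GC-adjusted -0.55) and Eif4ebp1, a brake on cap-dependent translation, by 0.74 (GC-adjusted -0.80). The adjustment reversed the called direction of Sesn2 (-0.44, GC-adjusted 0.56), Ddit4 (-0.53, GC-adjusted 0.43) and Vldlr (0.42, GC-adjusted -0.27). Asns had an interaction of -1.02 ± 0.22 (edgeR adjusted p = 0.00153; GC-adjusted -1.14), the same direction as Sars. Of the 9 amino acid transporters 3 rose and 4 fell (GC-adjusted 4 and 1), with Slc3a2 at 0.66 (GC-adjusted 1.09). Of those that fell, Slc7a5 (-0.51), Slc1a5 (-0.76) and Slc6a9 (-0.81) were not called when GC-adjusted (0.23, 0.04 and 0.01).

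Elongation factors deliver loaded tRNAs to the cytosolic ribosome and move it along the message. On nanotopography 3 of 5 fell with co-culture and 0 rose, beside 30.4% of all genes lower, and all 3 were lower also when GC-adjusted: Eef2, the translocation factor, by 1.46 (GC-adjusted -0.65), Eef1d by 0.86 (GC-adjusted -0.94) and Eef1g by 0.65 (GC-adjusted -0.32). Eef1a1, which carries the loaded tRNA, had a log2 fold change of -0.03 (GC-adjusted -0.14), not called in either fit, and Eef1b2 one of -0.25 that was called only when GC-adjusted (-0.50). On control titanium 0 of the 5 were called, with log2 fold changes of 0.08 to 0.36, beside 19.7% of all genes. When GC-adjusted 1 passed (Eef2, 0.32), beside 26.9% of all genes. Of 13 mitochondrial translation factors 1 rose on control titanium, the ribosome recycling factor Mrrf (0.86), beside 10.9% of all genes higher. Mrrf rose on nanotopography too (0.57, GC-adjusted 0.66). There 3 of the 13 rose and 2 fell (GC-adjusted 1 and 2), beside 59.2% of all genes called (GC-adjusted 39.4%). Among those that fell, the elongation factor gene Tsfm fell by 1.35 (GC-adjusted -1.09).

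Some members share exon sequence with other genes, and whether reads were counted by strand is not given in the sources used here. Hars and Hars2 lie head to head on chromosome 18 and share 195 bases on opposite strands. Iars2 shares 2034 exon bases with Rab3gap2 on the opposite strand, and Aars shares 1326 with Exosc6 on the same strand. Farsb shares 248 with Sgpp2, Fars2 501 with Nrn1, Vars2 465 with the antisense gene Gm20483, and Cars2 422 with Naxd. How reads from these stretches were assigned is not known. The values of these genes are therefore less certain than those of Sars, Nars, Vars, Farsa and Gars, for which no shared exon base was found.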

How the data were processed

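RNA-seq libraries of MC3T3-E1 cells (SMARTer, per the labels' protocols) were deposited as raw read counts per gene, 1 file per library. Tools named in the submitters' processing notes are STAR 2.4, HTSeq, cutadapt, DESeq2 and FastQC 0.63, and the build is mm10; their order, the annotation release and the strand setting are not given in the sources used here. Of the 12 deposited files 11 end within a line, so the 52654 genes complete in all were used (99.92% or more of the counts of a library). Identifiers without version were matched to GENCODE M21.

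From these counts, genes passing filterByExpr (13340) were fitted in edgeR 4.0.16 (R 4.3.3, limma 3.58.1) with TMM scaling, all 12 libraries and 4 group means. Quasi-likelihood tests gave 5 contrasts, adjusted by Benjamini-Hochberg over all tested genes; calls have an adjusted p below 0.05. SEs are the absolute log2 fold change over the square root of F, and CPM used TMM-scaled totals. The common dispersion of 0.0151 is a biological coefficient of variation of 12.3%. P-values measure the spread between these libraries.

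The GC adjustment removed each library's loess trend (span 0.3) with GC content and length of the longest transcript. Other alternatives were RLE and upper-quartile scaling, no and a stricter low-count filter (CPM of at least 1 in 6 libraries), DESeq2 1.42.0, a replicate block, only the groups compared, plain totals for sums and leaving out each library; leaving out the 3 libraries farthest along the first principal component (isolated nanotopography 1 and 3, co-culture nanotopography 1) was chosen after seeing the data. The scripts were tested on simulated data. The members, gene lists and alternatives were chosen with earlier results of these data known. Values are given in full for the up to 4 highest and 4 lowest called members of each contrast and the 4 interactions with the smallest p, and other members were named for their partners or roles. The main fit did not pair samples by replicate number. Of 18 same-number pairs of libraries, 6 had correlated deviations over 0.1 (range -0.39 to 0.30). Pairs of unlike number were not set beside them, so these values cannot exclude pairing. A further matched sequence is not reported here.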

Additional observations from a re-analysis of the deposited data

Results flagged for a closer look

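For 15 of the 34 synthetases the effect of co-culture differed between the surfaces by the edgeR interaction test, beside 47.8% of all tested genes. The 15 of 34 is near that share. Among the cytosolic genes the difference of log2 fold changes (nanotopography minus control titanium) was -1.74 for Vars, -1.21 for Sars, -1.02 for Farsa and for Qars, -0.94 for Aars, -0.87 for Gars, -0.83 for Wars, -0.80 for Yars, -0.79 for Kars, -0.63 for Cars, -0.51 for Hars and 0.42 for Dars. Among the mitochondrial genes it was -1.31 for Vars2, -0.63 for Tars2 and 0.77 for Rars2. When GC-adjusted, Vars, Sars, Farsa, Qars, Gars and Kars were called lower, at -0.65, -0.73, -0.91, -0.77, -0.69 and -0.97. Dars was called in the opposite direction at -0.44. The remaining 8 were not called, with values from -0.39 for Vars2 to 0.25 for Rars2. Over all genes 20.8% were called when GC-adjusted, and 8.21% were called lower in both fits.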

How the results depend on the processing

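Counts are members called. With the GC and length trend removed, the mitochondrial counts were 1 (from 0) for co-culture on control titanium, 1 (from 7) for co-culture on nanotopography, 1 (from 6) for the surface in co-cultured cells and 0 (from 3) for the interaction, and the cytosolic count for the surface in isolated cells was 3 (from 6); Of members called higher or lower in co-culture on nanotopography, Eprs went from 0.39 to -0.20, called lower, and Dars (from 0.69) and Aars2 (from -0.88) had -0.01 and 0.26, neither called, and for the surface in co-cultured cells Mars2 went from 0.54 to -0.25, not called. With that removal and the replicate block, these counts were 1, 1, 0, 0 and 2, Dars had -0.01, Mars2 -0.25 and Sars2 in co-culture on nanotopography 0.01. The replicate block alone gave cytosolic counts of 8, 12, 5, 10 and 12 for co-culture on control titanium, co-culture on nanotopography, the surface in isolated cells, the surface in co-cultured cells and the interaction, beside 8, 12, 6, 10 and 12, and moved no count by over 1.5 times. The mitochondrial count for co-culture on control titanium was 1 with upper-quartile scaling and 2 with no low-count filter, and that for the surface in isolated cells was 1 with no filter. Without the 3 libraries farthest along the first component, cytosolic counts were 6 for co-culture on nanotopography, 0 for the surface in isolated cells and 5 for the interaction, and mitochondrial counts were 1, 3 and 1 for co-culture on nanotopography, the surface in co-cultured cells and the interaction. Leaving out each library in turn gave cytosolic counts of 4 to 8 for co-culture on control titanium, 7 to 13 on nanotopography, 0 to 7 for the surface in isolated cells, 7 to 11 in co-cultured cells and 10 to 12 for the interaction, and mitochondrial counts of 0 to 1, 4 to 9, 0 to 0, 2 to 5 and 3 to 6. For runs that left out libraries, here and above, calls over all genes are given only for some on the surface in isolated cells. A change in the other member counts can therefore not be told apart from a change over all genes. The cause was not tested. Depth limits Sars2 (9 to 31 counts per library) most.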

Other observations

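Other gene groups of the same cells gave further values. Of 10 chaperones and folding factors of the endoplasmic reticulum 3 rose and 2 fell with co-culture on control titanium and 4 rose and 4 fell on nanotopography, beside 19.7% and 59.2% of all genes called; the counts below have the same background and none was tested against it. Hspa5, the chaperone BiP, rose by 0.40 on control titanium and by 0.82 on nanotopography (GC-adjusted 0.49), and Manf, a secreted stress protein, fell by 0.47 and by 1.03 (GC-adjusted -0.81). Of 5 tested genes for aminoacyl-tRNA editing and hydrolysis 0 were called on control titanium (0 when GC-adjusted), and 1, Dtd1, which frees tRNAs of D-amino acids, fell on nanotopography by 0.61 (GC-adjusted -0.26, not called). Of 6 tested interferon response genes 2 rose on control titanium, Ifit1 by 3.42 and Irf1 by 0.56, and on nanotopography 2 rose and 1 fell, with Ifit1 at 2.77 (GC-adjusted 2.28).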
